A study of Mus musculus with 55 samples.

Results

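The proteasome subunit genes were taken as all genes of the oocyte count tables whose symbol is Psm followed by a letter from a to g and a number. The rule found 48 of 51734 genes, and it used no measured value. By the known place of their products they fall into 8 alpha ring genes, 7 constitutive beta ring genes, 4 beta genes of the immune and thymus forms, 6 ATPase and 11 non-ATPase genes of the regulatory particle, 3 regulatory assembly chaperones, 4 activators with 1 inhibitor, and 4 core assembly chaperones. The symbols Psmb5-ps, Psmb6-ps, Psmb6-ps2, Psmb7-ps2, Psmc3ip and Psme2b start alike but do not match the rule and were left out.

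The proteasome is the protease that degrades proteins tagged with ubiquitin. Its core is a stack of outer alpha rings, which gate the chamber, and inner beta rings, of which beta1 (Psmb6), beta2 (Psmb7) and beta5 (Psmb5) cut the peptide chain, and the regulatory particle on its end binds ubiquitin, removes it and unfolds the substrate with a ring of ATPases (Psmc genes). The oocyte resumes meiosis and progresses to metaphase II (MII) while its transcription is largely silent, on stored mRNA and protein, and degradation of cyclin B and securin by the proteasome carries it through the first division.

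Each library was made from 1 mouse oocyte with the SMART-Seq HT kit, which primes cDNA at the poly(A) tail. There were 18 wild-type fully grown oocytes (FGOs), 8 FGOs of genotype Dnmt3LD124A/D124A with wild-type Dnmt3a (Dnmt3L ADD/ADD), 8 of genotype Dnmt3aADA/ADA with wild-type Dnmt3L (Dnmt3a ADD/ADD), 8 homozygous for both alleles (double mutant), and 10 wild-type MII oocytes. ADD is the domain of DNMT3A and of its inactive cofactor DNMT3L that reads the histone H3 tail, and the alleles, made in the germline and backcrossed, replace aspartic acid by alanine in it, so that the count of either gene is no check of the genotype. FGOs came from ovaries of females 10 to 12 weeks of age by puncture with a needle, and cumulus cells were washed off. The labels give no age for the MII oocytes. The paper describes MII oocytes, in its methods for fertilization, as taken from oviducts of females of another age range. Those females had been injected with inhibin antiserum and human chorionic gonadotropin. Hormone treatment, age and site of collection therefore cannot be told apart from maturation in the MII comparison. The number of females behind each group is not given in the labels, so p-values measure only the spread between these oocytes.

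The libraries held 7832458 to 23739871 counts, and the 48 genes took between 0.390% (double mutant) and 0.412% (Dnmt3a ADD/ADD) of them on average per group. Levels are in CPM, counts per library total after scaling by the trimmed mean of M-values (TMM), and state a share of the RNA counted in a library, so a loss of RNA from the whole oocyte would not show. Fewer molecules and shorter poly(A) tails cannot be told apart either. The libraries also part by the share of reads that the study could map, with under 80% in 8 wild-type FGO, 3 Dnmt3a ADD/ADD, all 8 double mutant and 3 MII libraries, and at least 80% in 10 wild-type FGO, 5 Dnmt3a ADD/ADD, all 8 Dnmt3L ADD/ADD and 7 MII libraries. For the Dnmt3L ADD/ADD and double mutant groups this class and the genotype move together, so values within a class stand beside the results below. All 12 oocyte markers checked (Gdf9, Bmp15, Zp3, Mos and others) had counts in every library. Markers of granulosa and cumulus cells (12 genes) summed to 118 to 246 CPM in wild-type FGOs against 103 to 127 CPM in MII oocytes, and those of theca and stroma (10 genes) to 5.53 to 41.6 CPM against 1.89 to 4.08 CPM.

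Since the kit starts at the poly(A) tail, the last 30 bases of the annotated transcript are shown for 3 genes of the beta ring that were lower in MII oocytes and for 2 genes of other subcomplexes that were higher. They were read from the GENCODE transcripts of GRCm38 (mm10), 5′ to 3′ along the mRNA and with T for U. Capitals mark AATAAA, the signal for cleavage and polyadenylation, and TTTTAAT or TTTTAT, letters of the cytoplasmic polyadenylation element through which maturing oocytes lengthen or shorten tails.
Psmb6 (chr11:70527620-70527649, plus strand): gacgcagaagctAATAAAcagtttgttaaa
Psmb5 (chr14:54614119-54614148, minus strand): tggctatAATAAAtaatagtacctctttca
Psmb3 (chr11:97713471-97713500, plus strand): ttttctTTTTAATAAAattgcctttctttc
Psmd4 (chr3:95032694-95032723, minus strand): AATAAAgcttggcaagttttccccttttgc
Psmd10 (chrX:140948429-140948458, minus strand): caagtattacaaacAATAAActgttgaaag
Psmb3 alone of these 5 holds the cytoplasmic element, overlapping its AATAAA. In the last 100 bases of the transcript, 6 of 45 members tested held it (13.3%), beside 18.7% of all genes tested with an annotated coding transcript, and the members with it included Psmb1 and Psmb3 of the beta ring. The members had short 3′ untranslated regions, with a median of 213 bases beside 980 over all genes, and the 7 beta ring genes had a median of 128, with 59 in Psmb3 and the longest in Psmb1.

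The 250 bases before the RefSeq start were compared for 40 members that matched by symbol (GRCm38.p6). Psmb5 and Psmb6, the beta ring genes with the largest fold changes at MII, both held TGACNNNGC (searched on both strands), the core of the antioxidant response element that NFE2L1 and NFE2L2 are known to bind in proteasome promoters. Psmb3 and Psmb4 did not hold it, and Psmb1, Psmb2 and Psmb7 were not searched here. It is in capitals here, 5′ to 3′ on the strand of the gene.
Psmb5 (chr14:54617996-54618245, minus strand): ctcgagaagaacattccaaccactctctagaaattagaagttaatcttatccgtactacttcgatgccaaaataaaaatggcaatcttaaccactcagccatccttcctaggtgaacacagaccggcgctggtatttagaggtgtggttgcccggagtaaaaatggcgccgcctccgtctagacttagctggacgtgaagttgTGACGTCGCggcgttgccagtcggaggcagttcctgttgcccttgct
Psmb6 (chr11:70525107-70525356, plus strand): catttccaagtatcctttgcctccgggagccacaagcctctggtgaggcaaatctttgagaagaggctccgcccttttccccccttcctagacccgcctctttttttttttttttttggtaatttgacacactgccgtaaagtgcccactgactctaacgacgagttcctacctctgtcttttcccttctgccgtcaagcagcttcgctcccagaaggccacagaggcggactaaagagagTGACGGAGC
The same letters stood in 5 of the 40 promoters (12.5%; also Psmc6, Psmd12 and Psmd9, which did not pass the test at MII) and in 10.1% of 27025 promoters of this length, and CCAAT in 35.0% and 34.5%. The members had a median of 14 CG dinucleotides in the window, beside 6 over all promoters.

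Levels in wild-type FGOs are given per kb of the exon length in the tables, so that genes can be compared. They ran from 0.0123 (Psmb9) to 114 CPM per kb (Psmd4). The median gene of the ATPase ring stood at 48.8 ± 3.93 CPM per kb (SD over the 18 oocytes), that of the activators and inhibitor at 28.97 ± 2.36, of the alpha ring at 26.9 ± 2.14, of the non-ATPases at 23.5 ± 3.96 and of the beta ring at 21.1 ± 2.26. The regulatory chaperones followed at 15.9 ± 1.58, the core chaperones at 11.6 ± 0.922 and the immune and thymus forms at 0.126 ± 0.0649. With the longest annotated coding transcript in place of the exon length the ATPases stayed first (62.5 CPM per kb), while the activators, the non-ATPases and both rings lay between 40.75 and 49.0 CPM per kb, and the order of the medians was the same.

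Within subcomplexes the highest members were Psmd4 (Rpn10, a ubiquitin receptor) at 114 ± 16.1 CPM per kb, Psme3 (PA28 gamma, a nuclear activator of the core) at 111 ± 11.3, Psmb1 (beta6) at 88.2 ± 11.1, Psmc5 (Rpt6) at 64.5 ± 10.0, Psma6 (alpha1) at 54.0 ± 5.24, Psmg4 at 35.7 ± 4.43 and Psmd10 (gankyrin) at 24.1 ± 2.82. Psmb1 is listed with 1036 bases of exon in the tables, whereas its longest annotated transcript has 1970, which would lower its level per kb. The counted exons end at chr17:15475721, while an annotated transcript runs on to chr17:15475021 at its 3′ end. Reads beyond the counted exons were not counted for Psmb1, so its level per kb is uncertain with either length. For other members the longest coding transcript is much shorter than the exon length, as for Psma7 (1157 against 3072 bases), Psmb6 (798 against 1872) and Psmc2 (1785 against 5031). Using it would raise their levels per kb. The highest and lowest members named here therefore hold for the exon length only. The lowest were Psmc2 (Rpt1) at 20.4 ± 3.41, Psmb3 (beta3) at 8.47 ± 1.65, Psmd9 at 8.06 ± 0.838, Psmd13 (Rpn9) at 1.89 ± 1.05, Psmg2 at 1.13 ± 0.858, Psme1 (PA28 alpha) at 0.570 ± 0.428 and Psma8 at 0.0772 ± 0.0595. Psmd13 and Psmg2, whose products are an integral lid subunit and a partner of Psmg1 in alpha ring assembly, were thus far under their partners in the same complexes (Psmd12 at 40.5 ± 6.26 and Psmg1 at 21.1 ± 1.92 CPM per kb). Psmd13 shares 342 bases of exon (10.1%) with Sirt3 on the other strand, and whether counting used the strand is not given in the sources used here.

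**Figure D1:**
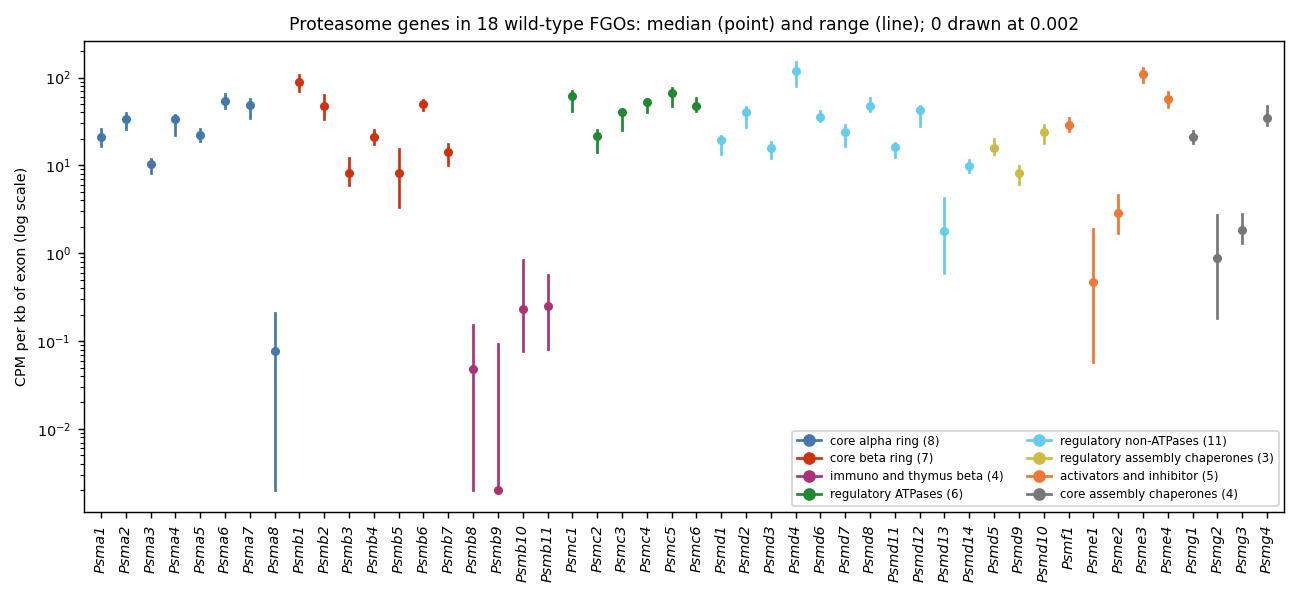
Level of each of the 48 genes in 18 wild-type FGOs, as CPM per kb of exon on a log axis, with the median as a point and the full range as a line, coloured by subcomplex. Psmd4 and Psme3 lead, with means of 114 and 111 CPM per kb, and Psma8 and the immune and thymus beta genes lie under 1 CPM per kb, with libraries at 0 drawn at 0.002.

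The oocytes were close to one another for most members. Among the 37 genes with at least 10 CPM, the coefficient of variation over 18 wild-type FGOs ran from 6.87% (Psmb6) to 19.5% (Psmb3), and over 10 MII oocytes from 3.21% (Psmd4) to 21.2% (Psmb6), with medians of 11.4% and 7.56%. The 11 genes under 10 CPM varied more, with medians of 68.6% and 45.8%. The sum over all 48 genes was 3956 ± 323 CPM in wild-type FGOs (SD, n = 18), 4091 ± 217 in Dnmt3L ADD/ADD (n = 8), 4166 ± 177 in Dnmt3a ADD/ADD (n = 8), 3812 ± 246 in double mutant FGOs (n = 8) and 4063 ± 75.3 in MII oocytes (n = 10).

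The catalytic subunits of the immunoproteasome and thymoproteasome, which take the places of beta1, beta2 and beta5 in immune cells and in thymic epithelium, were hardly detected. Psmb9 (beta1i) was at 0 in 12 of 18 wild-type FGOs, in all 8 double mutant FGOs and in all 10 MII oocytes, and reached 0.342 CPM at most in a wild-type FGO. A library at 0 allows up to 3 counts, and this covers counting error only. Psmb8 (beta5i) was at 0 in 6 of 18 wild-type FGOs with a median of 0.131 CPM and a highest value of 0.415 CPM, and in 5 of 10 MII oocytes. Both lie side by side in the MHC region (Psmb9 at chr17:34181988-34187764, Psmb8 at chr17:34197721-34201454), and Psmb9 shares 212 bases of exon with Tap1 on the other strand. Psmb10 (beta2i) had counts in all 18 wild-type FGOs, from 0.130 to 1.44 CPM with a median of 0.395, and in all 10 MII oocytes, from 0.145 to 0.734 with a median of 0.442. Psmb11 (beta5t) ran from 0.346 to 2.42 CPM (median 1.07) in wild-type FGOs and from 0 to 1.57 CPM (median 0.771) in MII oocytes. Stretches of 104 to 146 bases of Psmb11 matched transcripts of other genes, among them Mrpl35 (95.2% identity) and Reps1 (96.7%), which had 57073 and 126149 counts over the oocytes against 849 of Psmb11, so its few counts are uncertain. Neither Psmb10 (log2 fold change -0.33, SE 0.37, adjusted p = 0.497) nor Psmb11 (-0.50, SE 0.30, adjusted p = 0.186) passed the test between MII oocytes and FGOs, and Psmb8, Psmb9 and Psma8 were too low to be tested.

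Set against the subunits they replace, per kb and in the same oocyte, the median in wild-type FGOs was 0.586% for Psmb8 of Psmb5, 0% for Psmb9 of Psmb6, 1.77% for Psmb10 of Psmb7 and 3.03% for Psmb11 of Psmb5. Psma8, the form of alpha4 known from spermatocytes, was at 0 in 4 of 18 wild-type FGOs and in 7 of 10 MII oocytes, and its median was 0.179% of Psma7 in wild-type FGOs. The highest ratio seen in any wild-type FGO was 6.26%, for Psmb11. In the mutant FGOs the medians of these pairs lay between 0% and 3.67%. Of 10 genes of antigen presentation and interferon response, 7 passed the filter on low counts, and 1 differed between MII oocytes and FGOs, B2m, the light chain of MHC class I, at a log2 fold change of -0.61 (SE 0.11, adjusted p = 2.73e-05).

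From FGO to MII, the beta ring fell as a whole while the other parts of the particle split. All 7 constitutive beta genes were lower in MII oocytes, with a median log2 fold change of -0.77, and Psmb6, Psmb5 and Psmb1 fell to about 0.426, 0.445 and 0.509 of their FGO level. Of the 45 members tested, 12 were higher and 18 lower at an adjusted p under 0.05 (edgeR quasi-likelihood test, Benjamini-Hochberg over 15784 genes), beside 16.5% higher and 22.6% lower over all genes tested. The median log2 fold change was -0.10 over the members and -0.05 over all genes. No member was higher by more than 2-fold and 5 were lower (Psmb5, Psmb6, Psmd13, Psme1 and Psmg2), beside 0.196% and 9.0% of all genes. Without TMM, by library size alone, 8 members were higher and 23 lower, all 7 beta ring genes among the latter. Over all genes this scaling moved 2610 higher and 3560 lower calls to 1614 and 4305, and Psma6, Psmd3, Psmd8 and Psme4 were no longer called higher.

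Psmb6 (beta1, the caspase-like site; chr11:70525367-70527858) ran from 80.1 to 105 CPM in the 18 wild-type FGOs with a median of 92.9, and from 29.2 to 58.7 CPM in the 10 MII oocytes with a median of 39.2. The log2 fold change was -1.23 (SE 0.06, adjusted p = 5.76e-23). Every MII oocyte lay under every FGO. Psmb1 (beta6; chr17:15475721-15498276) ran from 73.1 to 111 CPM (median 91.9) in FGOs and from 39.9 to 57.3 CPM (median 44.9) in MII oocytes, again with no overlap, at -0.97 (SE 0.07, adjusted p = 9.86e-17). These were the 2 members without overlap on the lower side and none was on the higher side, beside 1.77% and 0.583% of all genes. Psmb5 (beta5, the chymotrypsin-like site; chr14:54614120-54617995) ran from 2.90 to 13.4 CPM (median 7.06) and from 2.09 to 4.28 CPM (median 3.25), at -1.17 (SE 0.15, adjusted p = 8.48e-09). Only the lowest FGO, at 2.90 CPM, came within the MII range.

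Psmb3 (beta3) ran from 13.85 to 28.0 CPM (median 18.8) in FGOs and from 8.09 to 14.3 CPM (median 11.7) in MII oocytes, at -0.77 (SE 0.10, adjusted p = 1.60e-08). Its ranges met at the edge. The other beta genes moved by less and their ranges overlapped more widely. Psmb4 (beta7) had a median of 41.0 CPM in FGOs and 32.7 CPM in MII oocytes (-0.35, SE 0.06, adjusted p = 3.30e-06). Psmb2 (beta4) had medians of 56.8 and 50.0 CPM (-0.23, SE 0.07, adjusted p = 0.00589), and Psmb7 (beta2, the trypsin-like site) of 48.4 and 39.6 CPM (-0.23, SE 0.06, adjusted p = 0.00414). Within the libraries with at least 80% of reads mapped, 6 of 7 beta genes were lower, beside 14.7% of all genes, with Psmb2 at -0.07 (adjusted p = 0.432). Within those under 80%, 5 of 7 were lower, beside 6.19% of all genes, with Psmb5 at -1.05 (adjusted p = 0.0971) and Psmb7 at -0.21 (adjusted p = 0.407). With the class as a covariate all 7 were lower.

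**Figure D2:**
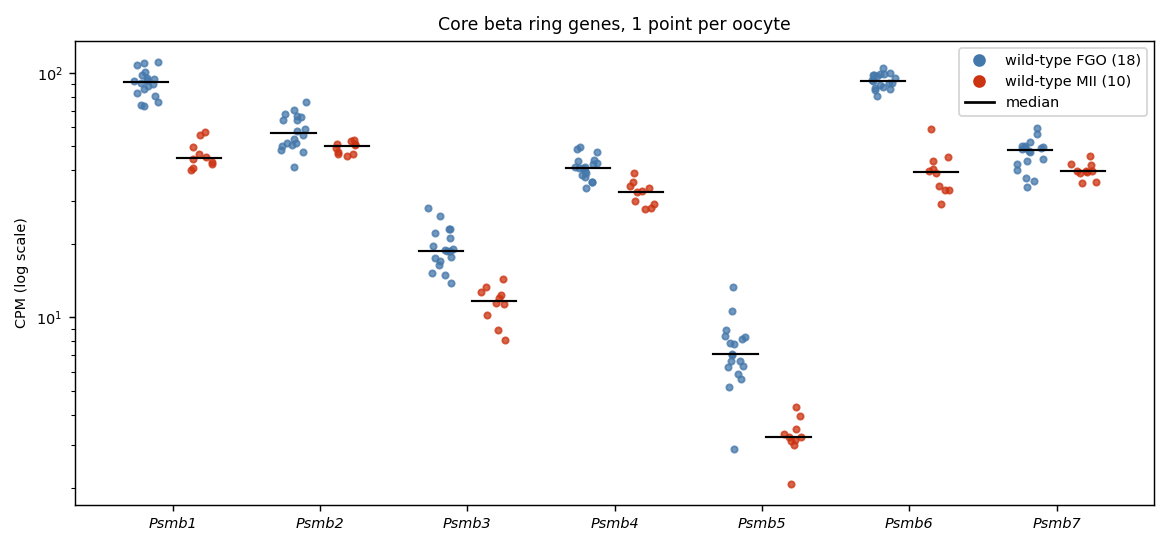
CPM on a log axis of the 7 constitutive beta ring genes in single oocytes, with wild-type FGOs (18) in blue, wild-type MII oocytes (10) in red and a bar at each median. The clouds of Psmb1 and Psmb6 are apart, those of Psmb3 and Psmb5 meet at the edge, and those of Psmb2, Psmb4 and Psmb7 overlap.

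The summed beta ring showed the same on the level of the oocyte. It took 313 to 420 CPM in the 18 wild-type FGOs (357 ± 27.04, SD) and 204 to 266 CPM in the 10 MII oocytes (222 ± 18.6), and these ranges did not overlap. The sum of the alpha ring was 543 ± 48.1 CPM in FGOs and 575 ± 22.4 CPM in MII oocytes, that of the ATPases 587 ± 70.5 and 563 ± 24.2 CPM, and that of the non-ATPases 1210 ± 124 and 1330 ± 25.2 CPM, each with overlapping ranges. As the members have short 3′ untranslated regions, the beta genes were also set beside other genes with under 300 bases there. The median log2 fold change was -0.10 over all 2679 such genes tested, -0.06 over 21 members outside the beta ring and -0.77 over 5 beta genes. The median lengths of these sets were 153, 116 and 73 bases, so they were not alike in length. An effect of length was not tested. Pseudogenes near to identical to Psmb5 (Gm3375, 98.9% over 796 bases) and Psmb3 (Gm4950, 97.1%) were counted apart with 79 and 107 counts over the oocytes, beside 5020 and 14092 for the genes, and how reads with several positions were treated is not given in the sources used here.

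In the alpha ring, 2 genes were higher and 2 lower of 7 tested. Psma7 (alpha4) ran from 107.5 to 176 CPM (median 150.1) in FGOs and from 151 to 184 CPM (median 165) in MII oocytes, at a log2 fold change of 0.19 (SE 0.05, adjusted p = 0.00376), and Psma6 (alpha1) stood at 0.14 (SE 0.05, adjusted p = 0.0387), a call lost when any of 6 single libraries was left out. Psma5 (alpha5) fell by 0.31 on the log2 scale (SE 0.07, adjusted p = 5.18e-04) and Psma3 (alpha7) by 0.28 (SE 0.06, adjusted p = 1.39e-04). Psma3 has a copy identical over 665 bases (Gm13835), so its share of reads is uncertain. Psma1, Psma2 and Psma4 did not pass, at 0.01, 0.12 and 0.10.

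Among the 6 ATPases, Psmc1 (Rpt2) was higher, from 80.6 to 134 CPM (median 119) in FGOs and from 127 to 144 CPM (median 133) in MII oocytes (0.25, SE 0.07, adjusted p = 0.00209). Psmc4 (Rpt3) was lower, with 86.8 to 124 CPM (median 113) in FGOs and 73.4 to 94.4 CPM (median 82.8) in MII oocytes (-0.41, SE 0.05, adjusted p = 1.69e-08), and the ranges of both genes overlapped. Psmc3 (Rpt5) was lower by a like amount (-0.42, SE 0.07, adjusted p = 6.45e-06). Psmc2, Psmc5 and Psmc6 stood at 0.12, 0.05 and -0.10 and did not pass. The proteins of these 6 genes form a single ring, and its members thus moved in both directions.

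Of the 11 non-ATPases, 5 were higher and 2 lower. Psmd4 (Rpn10), the most abundant, ran from 223 to 420 CPM (median 329) in FGOs and from 350 to 386 CPM (median 372) in MII oocytes, at 0.22 (SE 0.06, adjusted p = 0.00282). The large base scaffolds Psmd1 (Rpn2) at 0.25 (SE 0.06, adjusted p = 0.00158) and Psmd2 (Rpn1) at 0.19 (SE 0.06, adjusted p = 0.0123) were higher as well, and so were Psmd8 (0.17) and Psmd3 (0.16, lost without MII oocyte 1 or 2). Psmd13 (Rpn9) ran from 2.005 to 14.4 CPM (median 6.06) in FGOs and from 1.87 to 3.501 CPM (median 2.99) in MII oocytes, at -1.20 (SE 0.29, adjusted p = 9.40e-04). It was high in some FGOs only, and the MII oocytes lay at the low end of the FGO range. Psmd14 (Rpn11), the deubiquitinase of the lid, fell by 0.20 (SE 0.06, adjusted p = 0.00608). Psmd6, Psmd7, Psmd11 and Psmd12 lay between -0.08 and 0.12 and did not pass.

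Activators were higher or lower depending on the gene. Psme3 ran from 259 to 377 CPM (median 327) in FGOs and from 376.5 to 429 CPM (median 392.5) in MII oocytes, at 0.27 (SE 0.05, adjusted p = 1.40e-05), the lowest adjusted p on the higher side, and its ranges met at the edge. Psme4 (PA200), which caps the core and is known from germ cells, stood at 0.13 (SE 0.04, adjusted p = 0.00701) and the inhibitor Psmf1 at 0.16 (SE 0.04, adjusted p = 0.00214). The pair of PA28 alpha and beta, known for its induction by interferon, was lower: Psme2 by 0.64 on the log2 scale (SE 0.14, adjusted p = 2.49e-04), from a median of 5.12 to 3.30 CPM, and Psme1 by 2.15, as given below. Psme2 shares 99.4% of 794 bases with Psme2b. Of the chaperones, Psmd10 was higher (0.20, SE 0.06, adjusted p = 0.00318), and Psmd5 (-0.16), Psmg4 (-0.38) and Psmg2 (-2.0019, SE 0.47, adjusted p = 6.45e-04) were lower. Psmg2 ran from 0.193 to 2.90 CPM (median 0.932) in FGOs and from 0.0776 to 0.498 CPM (median 0.319) in MII oocytes, on 334 counts over the 18 FGOs and 37 over the 10 MII oocytes. Psmd9, Psmg1 and Psmg3 did not pass, at -0.11, -0.06 and -0.24.

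**Figure D3:**
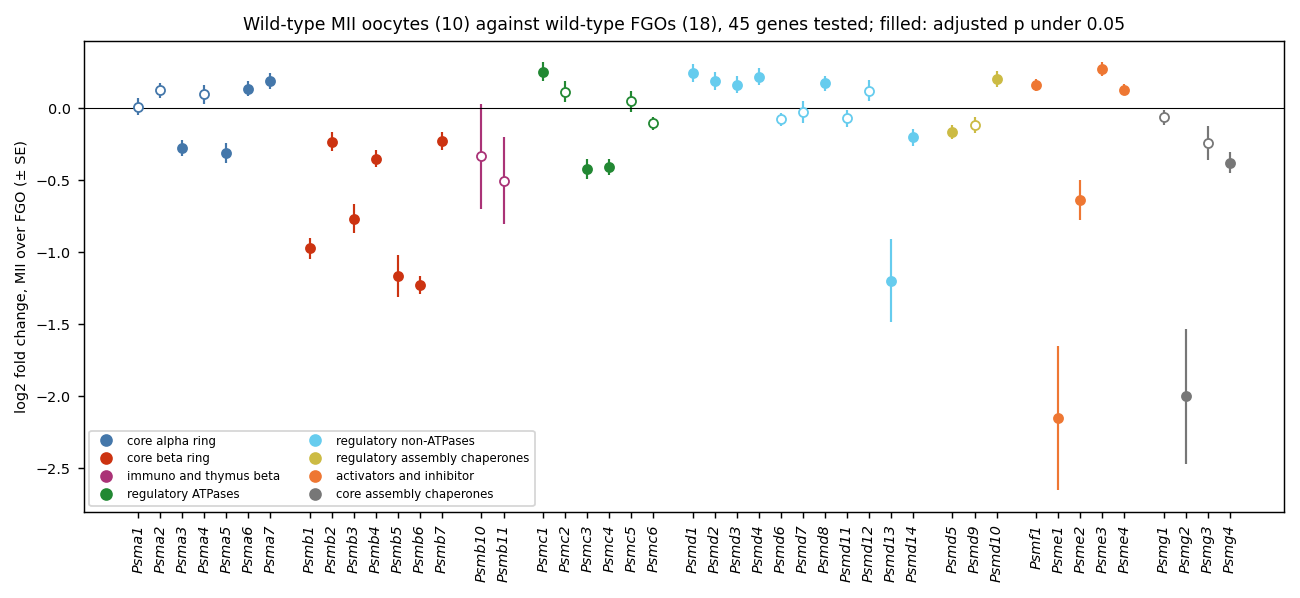
Log2 fold change (± SE) of MII oocytes (10) over wild-type FGOs (18) for the 45 genes tested, by subcomplex, filled where the adjusted p is under 0.05. All 7 beta ring genes lie under 0, from -0.23 to -1.23, and the lowest points are Psme1 at -2.15 and Psmg2 at -2.0019.

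Genes that work with the proteasome were tested in the same fit. Of 23 partners (shuttling receptors, the VCP segregase, deubiquitinases, and factors that control or build the particle), 11 were higher and 5 lower in MII oocytes, with a median log2 fold change of 0.11. Nfe2l1, the transcription factor that restores proteasome genes when the protease is impaired, stood at 0.29 (SE 0.04, adjusted p = 5.40e-07), the shuttle Rad23b at 0.22 (SE 0.04, adjusted p = 1.34e-05) and Midn (midnolin) at 0.43 (SE 0.09, adjusted p = 1.10e-04). Sem1, a small lid subunit outside the naming rule, was lower at -0.67 (SE 0.08, adjusted p = 1.43e-09), as were Ufd1 at -0.68 (SE 0.09, adjusted p = 1.84e-08) and Vcp at -0.25 (SE 0.06, adjusted p = 3.94e-04), which form a complex that extracts ubiquitinated proteins. By library size alone, 7 partners were higher and 5 lower. Of the genes of ubiquitin and its activating enzymes, Uba1 was higher (0.23, SE 0.04, adjusted p = 4.86e-06), Rps27a, which encodes ubiquitin fused to a ribosomal protein, was lower (-2.06, SE 0.08, adjusted p = 1.01e-27), and Ubb, a polyubiquitin gene, stood at 0.06 (adjusted p = 0.392).

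The mutant FGOs were each compared with the same 18 wild-type FGOs, so the comparisons are not independent of one another. The 45 members had median log2 fold changes of 0.03 for the Dnmt3L allele alone, 0.02 for the Dnmt3a allele alone and -0.03 for both, beside -0.03, -0.03 and -0.01 over all genes. These medians have no settled sign, as each crossed 0 under another setting (-0.003 with the mapping class as covariate, -0.008 by library size and 0.008 with a replicate block). The largest change in either single mutant among genes of at least 10 CPM was 0.39. Dnmt3a ADD/ADD FGOs had 9 members higher and 2 lower, beside 8.06% and 7.61% of 15726 genes tested. Dnmt3L ADD/ADD FGOs had 3 higher and 2 lower, beside 3.07% and 3.06%. Double mutant FGOs had 0 higher and 4 lower (edgeR quasi-likelihood test), beside 5.51% and 6.74%. With DESeq2 there were 0 and 5, beside 967 and 1374 of 15726 genes. At an unadjusted p under 0.05 the edgeR test gave 5 and 10, but all genes were not counted at that cut. By library size alone 1 was higher (Psmd5) and 4 lower, beside 851 and 1042 of 15726 genes. In Dnmt3a ADD/ADD the split depended on the scaling. There were 8 higher and 7 lower by library size alone (1015 and 1392 of 15726 genes), and 7 higher and 4 lower with upper quartile scaling.

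Of the calls on the higher side, 2 of 3 in Dnmt3L ADD/ADD and 4 of 9 in Dnmt3a ADD/ADD lay in the ATPase ring. Psmc4 (Rpt3) had 86.8 to 124 CPM (median 113) in wild-type, 123 to 149.5 (median 131) in Dnmt3L ADD/ADD, 119 to 155 (median 136.5) in Dnmt3a ADD/ADD and 96.5 to 122 CPM (median 106) in double mutant FGOs. The single mutants overlapped the wild type at its upper end only. Dnmt3L ADD/ADD FGOs stood at a log2 fold change of 0.28 (SE 0.06, adjusted p = 0.00238), those of Dnmt3a ADD/ADD at 0.34 (SE 0.06, adjusted p = 8.45e-05) and double mutants at -0.02 (adjusted p = 0.847). Among libraries with at least 80% mapped, Psmc4 stood at 0.23 (adjusted p = 0.00123) and 0.25 (adjusted p = 0.00549), where wild-type FGOs ran from 104 to 121 CPM and Dnmt3L ADD/ADD from 123 to 149.5 CPM.

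Psmc5 (Rpt6) had 66.1 to 106 CPM (median 93.8) in wild-type, 94.2 to 131 (median 107) in Dnmt3L ADD/ADD, 108.5 to 126 (median 119) in Dnmt3a ADD/ADD and 63.3 to 98.9 CPM (median 79.1) in double mutant FGOs. All 8 Dnmt3a ADD/ADD oocytes lay above all wild-type FGOs, but the share of all genes without overlap was not counted for this comparison. The log2 fold change was 0.29 (SE 0.08, adjusted p = 0.0287) in Dnmt3L ADD/ADD and 0.39 (SE 0.08, adjusted p = 0.00116) in Dnmt3a ADD/ADD. Within at least 80% mapped reads these were 0.18 (adjusted p = 0.0650) and 0.28 (adjusted p = 0.00353), and the call in Dnmt3L ADD/ADD was also lost without its oocyte 3, 6 or 7. Psmc5 itself differed between the classes among wild-type FGOs, with a median of 95.6 CPM at 80% or more and 74.4 CPM under it (log2 difference 0.26, SE 0.09, adjusted p = 0.0373, lost when any of 10 single libraries was left out). Psmc2 (0.27, adjusted p = 0.0257) and Psmc3 (0.24, adjusted p = 0.0212) were higher in Dnmt3a ADD/ADD over all libraries, and did not pass within those of at least 80% (0.16 and 0.12) or without Dnmt3a ADD/ADD oocyte 2 or 5, nor did Psmc2 without oocyte 1 or 3. The sum of the 6 ATPases was 587 ± 70.5 CPM in wild-type (n = 18), 660 ± 40.9 in Dnmt3L ADD/ADD (n = 8), 683 ± 31.1 in Dnmt3a ADD/ADD (n = 8) and 545 ± 46.5 in double mutant FGOs (n = 8). Between the wild-type classes, 3 of the 6 ATPases were higher at 80% or more, beside 11.2% of all genes, with a median log2 difference of 0.23. The sums of the Dnmt3L ADD/ADD and double mutant groups, each of a single class, thus stand beside wild-type FGOs of both classes. Mapping class enters these differences along with genotype, and the sums were not compared within a class.

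In the beta ring, Psmb4 (beta7) ran from 33.8 to 49.6 CPM (median 41.0) in wild-type, from 42.7 to 54.0 (median 49.1) in Dnmt3L ADD/ADD and from 41.9 to 55.4 CPM (median 49.2) in Dnmt3a ADD/ADD FGOs. It was higher in both, at 0.24 (SE 0.06, adjusted p = 0.0122) and 0.26 (SE 0.06, adjusted p = 0.00180), and within at least 80% mapped reads at 0.31 (adjusted p = 0.00233) and 0.29 (adjusted p = 0.0195). Psmb6 (beta1) was lower in both, from 80.1 to 105 CPM in wild-type, 72.7 to 89.5 (median 84.6) in Dnmt3L ADD/ADD and 74.4 to 89.4 CPM (median 85.7) in Dnmt3a ADD/ADD FGOs. Its log2 fold changes were -0.16 (SE 0.04, adjusted p = 0.0234) and -0.15 (SE 0.04, adjusted p = 0.0171), and -0.18 in both within the class (adjusted p = 0.0157 and 0.0311). In double mutant FGOs it stood at -0.02. Psmb7 (0.33, SE 0.07, adjusted p = 0.00137) and Psmb1 (0.24, SE 0.07, adjusted p = 0.0206) were higher in Dnmt3a ADD/ADD, and Psmb7 kept its call within the class (0.26, adjusted p = 0.0187) while Psmb1 did not (0.18, adjusted p = 0.0913), nor without Dnmt3a ADD/ADD oocyte 2, 5, 7 or 8. The call of Psmb6 in Dnmt3L ADD/ADD was lost without its oocyte 5.

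Outside these rings, Dnmt3a ADD/ADD FGOs had Psmd12 (0.25, adjusted p = 0.0385) and Psmd9 (0.17, adjusted p = 0.0490) higher, and Psmd13 lower at -1.0003 (SE 0.33, adjusted p = 0.0351). Psmd13 ran from 1.51 to 8.66 CPM (median 2.43) there and from 2.005 to 14.4 CPM (median 6.06) in wild-type FGOs, and it stood at -0.51 (adjusted p = 0.343) within at least 80% mapped reads. Of the 26 libraries compared, leaving out any of 23 ended the call of Psmd9, any of 15 that of Psmd12 and any of 9 that of Psmd13. Psmg1, a core assembly chaperone, was lower in Dnmt3L ADD/ADD, from 21.0 to 27.3 CPM (median 24.8) against 24.3 to 33.2 CPM (median 28.4), at -0.19 (SE 0.06, adjusted p = 0.0426), and at -0.24 (adjusted p = 0.0242) within the class, a call lost over all libraries when any of 11 single libraries was left out. Within the class of at least 80%, further members passed that did not over all libraries. In Dnmt3L ADD/ADD these were Psma5 (0.31, adjusted p = 0.00292) on the higher side and Psma4 (-0.28), Psma7 (-0.14), Psmd7 (-0.25) and Psmc1 (-0.16) on the lower, and in Dnmt3a ADD/ADD Psma4 (-0.30, adjusted p = 0.00250) and Psma7 (-0.27, adjusted p = 0.00441). Among Dnmt3a ADD/ADD and wild-type libraries under 80%, with 3 and 8 oocytes, no member passed, beside 64 higher and 73 lower of 15611 genes. Psmb8, Psmb9, Psmb10 and Psmb11 gave no call in any genotype.

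**Figure D4:**
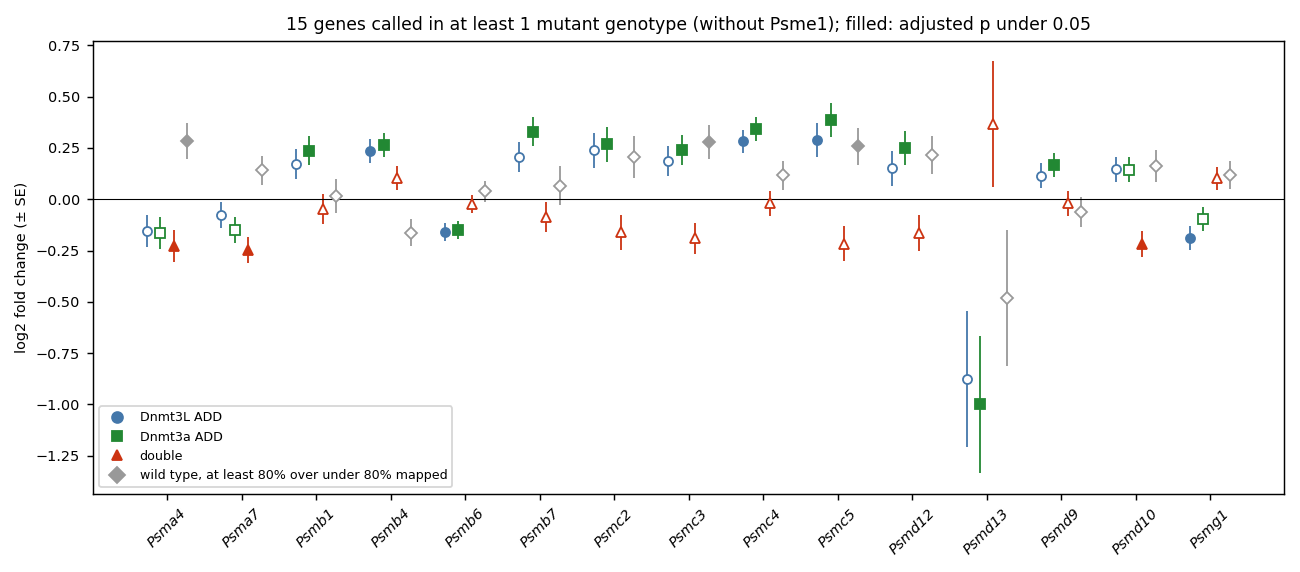
Log2 fold change (± SE) against wild-type FGOs of the 15 genes called in at least 1 mutant genotype, without Psme1, for Dnmt3L ADD/ADD (blue circles), Dnmt3a ADD/ADD (green squares) and double mutant FGOs (red triangles), filled where the adjusted p is under 0.05. Grey diamonds give the difference between the 2 mapping classes of wild-type FGOs, which for Psma4 is 0.28 and for Psmc5 is 0.26.

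In double mutant FGOs the 4 members lower were Psme1, Psma7, Psmd10 and Psma4. Psma7 ran from 106 to 137 CPM (median 126) against 107.5 to 176 CPM (median 150.1) in wild-type FGOs, at -0.25 (SE 0.06, adjusted p = 0.0105). Psmd10 stood at -0.22 (SE 0.06, adjusted p = 0.0209) and Psma4 at -0.23 (SE 0.08, adjusted p = 0.0465, lost when any of 19 single libraries was left out), and all 3 overlapped the wild-type range. All double mutant libraries were under 80% mapped, and against the 8 wild-type FGOs of that class they stood at -0.16, -0.12 and -0.06 (adjusted p = 0.577, 0.739 and 0.920). Psma4 also differed between the wild-type classes, at 0.28 (adjusted p = 0.0214). Between those classes 8 members were higher at 80% or more and 5 lower of 44 tested, beside 11.2% and 14.2% of 14664 genes. Leaving out 1 library moved these to between 5 (without oocyte 4) and 13 higher (without oocyte 8), and to between 3 (without oocyte 17) and 5 lower. The calls of Psma7, Psmd10 and Psma4 thus rested on wild-type FGOs of both classes, and all 3 were lost with the class as a covariate. The comparison within the class held fewer oocytes. The part of mapping class in these changes was not tested.

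Psme1 (PA28 alpha; chr14:55578123-55581529) is a scarce gene here that was lower in both double mutant and MII oocytes. It ran from 0.127 to 4.204 CPM (median 1.03) in wild-type FGOs, from 0.367 to 1.55 (median 0.940) in Dnmt3L ADD/ADD, from 0.103 to 1.30 (median 0.367) in Dnmt3a ADD/ADD, from 0.0731 to 0.834 (median 0.210) in double mutant FGOs, and from 0 to 1.12 CPM (median 0.165) in MII oocytes, of which 4 had no count. All ranges overlapped. The log2 fold change was -2.01 in double mutant FGOs (SE 0.46, adjusted p = 0.00494) and -2.15 in MII oocytes (SE 0.50, adjusted p = 6.34e-04), and -1.06 in Dnmt3a ADD/ADD (SE 0.42, adjusted p = 0.0792) and -0.46 in Dnmt3L ADD/ADD (SE 0.41, adjusted p = 0.527). With the mapping class as a covariate, the double mutant stood at -2.11 (adjusted p = 0.0134), and in that class alone the gene was too low to be tested. Within the classes the MII change was -2.68 (adjusted p = 0.00624) at 80% or more and -1.36 (adjusted p = 0.245) under it.

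Markers of other ovarian cells were lower in the same groups. In double mutant FGOs 7 of 8 theca and stroma markers tested were lower, and so were 7 of 8 in MII oocytes. Their sum was 5.53 to 41.6 CPM in wild-type, 3.84 to 14.4 in Dnmt3L ADD/ADD, 3.78 to 70.1 in Dnmt3a ADD/ADD, 2.06 to 4.49 in double mutant FGOs and 1.89 to 4.08 CPM in MII oocytes, with Acta2, Tcf21 and Lum at 0 in all double mutant and all MII libraries. Granulosa and cumulus markers were lower in 7 of 11 tested in double mutant FGOs and 8 of 11 in MII oocytes, and Amh and Inhbb were at 0 in all MII libraries, while Nr5a2 and Cyp19a1, which make up most of that sum, were not (83.4 and 25.3 CPM). The wild-type FGO with the most Psme1, at 4.204 CPM, also had the highest sum of theca and stroma markers (41.6 CPM) and of granulosa markers (246 CPM). Not all oocytes followed this order. Those with the next highest Psme1, wild-type FGOs 17 and 2 at 2.71 and 1.87 CPM, ranked 9 and 14 of 18 for theca and stroma markers, and the FGO with the most of these markers (70.1 CPM, Dnmt3a ADD/ADD oocyte 8) had 1.003 CPM of Psme1. In Dnmt3a ADD/ADD FGOs, where Psme1 stood at -1.06, the mean sum of theca and stroma markers was 17.2 CPM, beside 13.3 CPM in the wild type. The medians went the other way, at 7.38 CPM beside 10.55 CPM. Without the 5 FGOs whose theca and stroma markers summed to over 20 CPM, a choice made after seeing the data, Psme1 stood at -1.74 in double mutant FGOs (adjusted p = 0.0134) and at -1.87 in MII oocytes (adjusted p = 0.00300), and the MII comparison still had 12 members higher and 18 lower. In the Dnmt3a ADD/ADD comparison this left 4 members higher and 1 lower. The part of somatic RNA in these values was not tested.

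**Figure D5:**
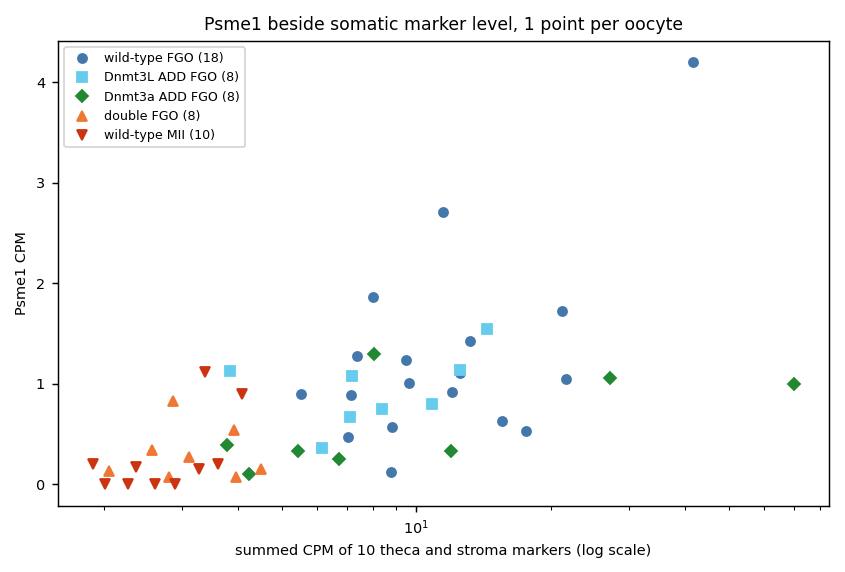
Psme1 CPM in each of 52 oocytes against the summed CPM of 10 theca and stroma markers on a log axis, by group. Double mutant FGOs and MII oocytes lie under 5 CPM of markers, and the wild-type FGO at 41.6 CPM of markers has the highest Psme1, 4.204 CPM.

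Whether the effect of 1 mutation differed with the other was tested as a contrast, the change from Dnmt3a ADD/ADD to double mutant less the change from wild type to Dnmt3L ADD/ADD. It passed for 21 of 45 members, 7 above 0 and 14 under 0, beside 19.3% and 16.3% of 15726 genes. The ATPases Psmc5 (-0.89, SE 0.13, adjusted p = 2.04e-06), Psmc4 (-0.64, SE 0.09, adjusted p = 1.57e-06), Psmc2 (-0.67, SE 0.13, adjusted p = 1.70e-04) and Psmc3 (-0.62, SE 0.11, adjusted p = 7.64e-05) were among those under 0: they stood at 0.19 to 0.39 in the single mutants and at -0.02 to -0.22 in the double mutant. Psmb7 (-0.62, SE 0.11, adjusted p = 5.48e-05) and Psmd10 (-0.51, SE 0.10, adjusted p = 9.75e-05) went the same way. Psmd13 (2.24, SE 0.50, adjusted p = 7.23e-04) and Psmg2 (2.70, SE 0.74, adjusted p = 0.00438) were the furthest above 0. The Dnmt3L ADD/ADD libraries were all of the upper mapping class and the double mutant libraries all of the lower. Genotype and class can therefore be parted in this contrast only if the class acts alike in every genotype, which was not tested. With the class as a covariate 15 members passed, 4 above 0 and 11 under 0, beside 950 and 1276 of 15726 genes (3041 and 2560 without it). Of the 21 calls, 13 were kept and 8 were lost in that fit. Psmg2 was among those lost (adjusted p = 0.174), while Psmd13 and the 4 ATPases kept their calls.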

How the data were processed

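The SMART-Seq HT libraries of single oocytes were sequenced by the study, and the deposited tables hold the authors' raw counts of reads per gene, made with STAR on mm10 and a gene counter (HTSeq and featureCounts are both named); the annotation release, the strand setting and the treatment of reads with several positions are not given in the sources used here. The allelic tables of 3 embryos were not used. The class of mapped reads (80%) was read from the study's library list.

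The count tables of 52 oocytes were joined and fitted with edgeR 4.0.16 in R 4.3.3 (TMM, filterByExpr at 10 counts, tests by quasi-likelihood, p-values adjusted over all genes tested after Benjamini and Hochberg, threshold 0.05, no minimum fold), with all 52 libraries for MII, the 42 FGO libraries for the genotypes, and the 18 wild-type FGOs for the mapping classes. DESeq2 1.42.0 was an alternative. The non-additive contrast is double less Dnmt3a ADD/ADD, less the difference of Dnmt3L ADD/ADD and wild type. CPM are TMM-scaled, and levels per kb use the exon length in the tables. The scripts were tested on simulated data.

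Named genes were the alternative forms and the subunits they replace, up to 6 members per direction and comparison by adjusted p, the highest and lowest member of each subcomplex per kb, up to 6 non-additive members, and up to 3 per direction of the other lists; Psma3, Psma5, Psma6 and other members given for completeness fall outside it and were named after their values were seen. Some items that the rule names are not reported here. Members and lists were chosen with earlier results of these data known. Marker lists covered oocytes, granulosa and cumulus, theca and stroma, and blood and endothelium, whose 10 genes summed to 80.6 CPM in wild-type FGOs and 89.9 CPM in MII oocytes, mostly Pecam1. A count of 0 allows up to 3 counts. Libraries of a group were not duplicates, with a chi-square of at least 5.39 per degree of freedom between any 2. Replicate numbers did not pair libraries across groups. Alternatives were other scalings, filters, tests, library classes and the leaving out of each library.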

Additional observations from a re-analysis of the deposited data

Results flagged for a closer look

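In groups of 8 or 10 oocytes, 7 of 118 sets of values of named genes had 1 oocyte far from the others (5.93%). Chance flags about 1 in 20 groups if values are normally spread. Psmb8 and Psmb9 had few counts or none per oocyte, so that rate does not hold for them. Psmb7 was at 67.27 CPM in Dnmt3a ADD/ADD oocyte 2, with the nearest other at 59.91. Psmd4 was at 288.4 CPM in Dnmt3a ADD/ADD oocyte 4 (nearest 332.1), and Psmd13 at 8.657 CPM in the same oocyte (nearest 3.985). Psmg1 was at 20.96 CPM in Dnmt3L ADD/ADD oocyte 5 (nearest 24.58). Among the immune forms, Psmb8 was at 0.3968 CPM in Dnmt3L ADD/ADD oocyte 6 (nearest 0.1354) and at 0.3501 CPM in MII oocyte 10 (nearest 0.1631), and Psmb9 at 0.1252 CPM in Dnmt3a ADD/ADD oocyte 3, where all others were at 0.

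The effect of one allele differed with the other for 21 members in the edgeR test of the non-additive contrast. On the log2 scale it was above 0 for Psmg2 (2.7049), Psmd13 (2.2427), Psmb5 (0.7657), Psme2 (0.752), Psmb2 (0.5215), Psmg1 (0.3864) and Psmb6 (0.2903). It was under 0 for Psmc5 (-0.8908), Psmc2 (-0.6699), Psmc4 (-0.6433), Psmb7 (-0.6207), Psmc3 (-0.6166), Psmd12 (-0.5655), Psmd10 (-0.5097), Psmb1 (-0.4556), Psmd2 (-0.4439), Psmb4 (-0.3965), Psma2 (-0.3529), Psmd4 (-0.3146), Psmd9 (-0.3039) and Psme3 (-0.249). With the mapping class as a covariate 15 members passed, of which 13 were among these 21. The 8 that lost their call were Psmg2, Psmb5, Psme2, Psmb2, Psmd2, Psma2, Psmd4 and Psme3.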

How the results depend on the processing

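No called result turned its direction, while the medians over members, near 0 in the mutants, crossed 0 at -0.003 (Dnmt3L ADD/ADD, class as covariate), -0.008 (Dnmt3a ADD/ADD, library size) and 0.008 (double mutant, replicate block). The cause of the changes below was not tested. Psmb1, Psmb3, Psmb4 and Psmb6 were called lower in MII oocytes under all 42 alternatives. Within libraries of at least 80% mapped reads, members higher and lower at MII numbered 7 and 14 (1681 and 2109 of 14314 genes). Within those under 80%, where fewer oocytes were tested, they numbered 1 and 6 (632 and 957 of 15464 genes). Partners there numbered 5 higher and 2 lower, and 7 higher by library size alone. In Dnmt3L ADD/ADD, members higher numbered 10 with a replicate block (1477 of all genes, beside 483 without it), and members lower 6 within at least 80% (591 of 14438 genes), 1 with the block or without the libraries rich in theca and stroma markers, and 0 with no filter, with only the 2 groups, or with edgeR's exact test. In Dnmt3a ADD/ADD, members higher numbered 5 within at least 80% (775 of 15070 genes) and 0 under 80% (64 of 15611 genes). They numbered 4 without the marker-rich libraries. Members lower numbered 7 by library size (1392 of 15726 genes), 5 with DESeq2 (1497 of 15726 genes) and 4 with upper quartile. They numbered 1 with only the 2 groups or without marker-rich libraries, 0 with no filter and 0 under 80% (73 of 15611 genes). In the double mutant, members higher numbered 1 by library size (851 of 15726 genes). Members lower numbered 2 with no filter, only the 2 groups or the exact test. They numbered 1 with the class as covariate (276 of 15726 genes), 1 with the replicate block (161 of 15726 genes) and 0 under 80% (105 of 14279 genes). The block left 13 higher and 17 lower at MII (Psmb7 lost, adjusted p = 0.0547) and 26 non-additive calls, but same-numbered libraries correlated between -0.607 and 0.543 and none best with its own number. Leaving out 1 library gave 10 to 13 higher and 18 to 20 lower at MII. It gave 2 to 4 higher and 0 to 3 lower in Dnmt3L ADD/ADD (0 without its oocyte 5), 4 to 9 higher (4 without its oocyte 2 or 5) and 1 to 5 lower (5 without wild-type oocyte 18) in Dnmt3a ADD/ADD, and 0 to 3 higher (3 without wild-type oocyte 6) and 3 to 8 lower (8 without wild-type oocyte 4, 5 or 6, and 7 without double mutant oocyte 6) in the double mutant, and 20 to 22 non-additive calls. Per kb of the longest coding transcript, subcomplex medians were 62.47 (ATPases), 48.99 (activators and inhibitor), 47.1 (alpha ring), 43.2 (non-ATPases), 40.75 (beta ring), 23.92 (regulatory chaperones) and 16.79 CPM (core chaperones). Depth limits Psma8, Psmb8 and Psmb9, which had 36, 39 and 13 counts over 18 wild-type FGOs.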

Other observations

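Psmd13 and Psmg2, low and variable genes that lie on different chromosomes, were high in many of the same wild-type FGOs. The 5 oocytes with the most Psmg2 (wild-type oocytes 1, 4, 5, 6 and 7, at 2.05 to 2.90 CPM) held ranks 1, 2, 3, 4 and 7 of 18 for Psmd13, with 14.4 CPM in oocyte 5 and 6.37 CPM in oocyte 7. In double mutant FGOs, also all of the class under 80% mapped reads, the medians were 7.63 CPM for Psmd13 and 1.855 CPM for Psmg2, beside 7.22 and 2.23 CPM in wild-type FGOs of that class, and neither gene was called. In MII oocytes they were 2.99 and 0.319 CPM. Oocytes 4, 5 and 6 are also those without which the count of members lower in the double mutant rose from 4 to 8. All 5 wild-type FGOs were of the class under 80% mapped reads. The pattern was noticed in the data and is a description.

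Of the 48 genes, 12 were called in none of the comparisons of MII or mutant oocytes with wild-type FGOs, among them Psmb10 and Psmb11 and the untested Psma8, Psmb8 and Psmb9. Of 23 proteasome partners, 1 was higher for the Dnmt3L allele alone (3.07% of all genes), 3 for the Dnmt3a allele alone (8.06%), and 1 was higher and 1 lower for both (5.51% and 6.74%).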
